A study of Mus musculus with 23 samples.

Results

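The miR-297, miR-466, miR-467 and miR-669 families are rodent microRNAs (miRNAs) whose genes lie mostly in 1 intron of Sfmbt2. They were taken by name, as every entry of the count files whose name begins with 1 of these 4 family numbers, followed at most by a letter and then an arm or copy label. The rule gave 80 members of the 1915 miRNAs in the files. The libraries were small RNA libraries of dissected brain tissue from mice of the C57BL/6 strain, 12 from wild type and 11 from Cdr1as knockout mice. Each genotype had 3 libraries of cerebellum, cortex, hippocampus and olfactory bulb, except knockout hippocampus with 2. Cdr1as, the deleted locus, gives rise to a neuronal circular RNA that binds miR-7 and is cut at a site for miR-671. No age, sex or pooling of animals was given for any group, and no other allele or agent was named. The labels do not say whether the libraries of a group came from separate animals, so p-values measure only the spread between these libraries.

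A miRNA is cut from a hairpin precursor as a 5p or a 3p arm, and it lowers the output of messenger RNAs that pair with its seed, the stretch near its 5′ end. Sfmbt2 encodes a Polycomb group protein, and in mice it is an imprinted gene read from the paternal copy in the early embryo and the placenta. The miRNA cluster in its intron grew by repeated duplication in rodents, so many mature sequences of these families are near-identical and rich in GU or AC repeats.

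By the gene names of RefSeq on GRCm38.p6, the families have 82 precursor genes, of which 72 lie inside Sfmbt2 on chromosome 2. All 72 sit in intron 11 of the Sfmbt2 transcript with the most exons, which has 23, over a span of 51.6 kb. None of the 72 overlapped an exon of any Sfmbt2 transcript. The share inside the gene was 5 of 6 precursors for miR-297, 24 of 29 for miR-466, 14 of 17 for miR-467 and 29 of 30 for miR-669. The other 10 precursors were on other chromosomes. The files were made on mm9 per the submitters' processing notes, so these positions give the neighbourhood of the genes and were not used to count anything.

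Mature sequences were matched by name in RefSeq (GRCm38.p6) for 8 members, each from a precursor outside Sfmbt2. Of these, 6 had a count in at least 1 library, and they are shown because they display both repeat types of the families. Capitals mark the seed, bases 2 to 8 of the mature RNA.
miR-466i-3p (chr13:17747552-17747573, plus strand): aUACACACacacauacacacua
miR-466q (chr3:28419988-28420007, plus strand): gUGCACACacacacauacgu
miR-467g (chr5:34732872-34732892, minus strand): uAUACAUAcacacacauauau
miR-466j (chr10:60960802-60960824, plus strand): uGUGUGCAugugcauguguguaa
miR-466k (chr3:85467396-85467418, plus strand): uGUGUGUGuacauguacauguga
miR-669n (chr3:115979905-115979924, plus strand): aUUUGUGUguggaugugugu
The 8 matched members, which also include miR-467f and miR-467h, had 8 different seeds. UGUGUG, searched on the mature strand only, was in 4 of the 8, and ACACAC was in the other 4. Among all 1679 mature names in the RefSeq table, 1.67% held UGUGUG, 0.655% held ACACAC and 2.32% held either. A GU repeat is not limited to these families. miR-574-5p, which comes from another locus, carries one too.
miR-574-5p (chr5:64970328-64970350, plus strand): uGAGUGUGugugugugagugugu

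The library totals ran from 2328929 to 13070794 miRNA counts. Of the 80 members, 74 had a count in at least 1 library, 24 had a count in all 23, and 19 had at most 10 counts in all libraries together. The 6 members without any count were miR-466l-5p, miR-467f, miR-467h, miR-669g, miR-669j and miR-669k-3p. A count of 0 allows a level of up to 1.29 CPM (counts scaled to a common library total) in the smallest library and 0.230 in the largest, for counting error only. A library held between 36 and 63 members, with a median of 53, and between 15 and 37 members with at least 10 counts. The number detected depends on depth. At the smallest library total, the expected number was 33.2 to 50.5, with a median of 44.8. Its group median over the wild type libraries was 49.0 in the cerebellum, 48.6 in the hippocampus, 43.1 in the cortex and 38.7 in the olfactory bulb.

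Counts were carried by few members, and nearly all of them by members whose precursors lie in Sfmbt2. The members had 159915 counts in all, and the 14 with the highest totals held 93.4% of them. The 66 members with precursors only inside Sfmbt2 had 158000 counts, the 5 with precursors both inside and outside had 1400, and the 9 with precursors only outside had 515. Of those 515 counts, 339 were miR-466i-5p and 121 were miR-466q. miR-669 took 41.3% of the member counts over 30 members, miR-466 took 29.0% over 31, miR-467 took 28.1% over 13 and miR-297 took 1.56% over 6. The arm that dominated differed between families. The 3p arm had 43547 counts against 2526 for the 5p arm in miR-466, whereas miR-467 had 12628 counts on the 3p arm and 32292 on the 5p arm.

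Many members were not counted independently of each other. In 11 sets, 24 members had exactly equal counts in every library, which left 61 distinct patterns among the 74 members with a count. miR-669a-3p and miR-669o-3p formed one such set. miR-467a-5p was equal to miR-467b-5p, miR-669a-5p to miR-669p-5p, and miR-467a-3p to miR-467d-3p. The 3p arms of miR-466b, miR-466c and miR-466p formed a set of 3, as did those of miR-297a, miR-297b and miR-297c, and miR-466a-3p was equal to miR-466e-3p. In the accounts below, a set is named by its first member and its values stand for all members of the set.

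Some members were also counted in fixed steps. All counts of miR-669a-3p were multiples of 12, those of miR-669a-5p of 14, and those of miR-467a-5p and miR-467a-3p of 11. A common multiple above 1 was present in 18 of the 55 members with a count in 10 or more libraries. It was present in 12 of 916 other miRNAs, where it was always 2. The 18 members formed 11 sets, each compared with the precursor copies that RefSeq names for it, less any copy with its own entry in the files. In 8 of the 11 the multiple equalled that number. For miR-669a-3p and miR-669o-3p this rested on leaving out 1 copy, which has its own entry, miR-669a-3-3p. RefSeq names 12 precursors of miR-669a and 1 of miR-669o, and the multiple was 12. miR-467a has 10 precursors and miR-467b has 1, for example, and the shared multiple was 11. The 3 sets that did not match were miR-297a-3p, with a multiple of 4 and 6 precursors, and miR-466e-5p and miR-669k-5p, each with a multiple of 2 and 1 precursor. How a read that fits several copies was counted is not given in the sources used here.

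**Figure D1:**
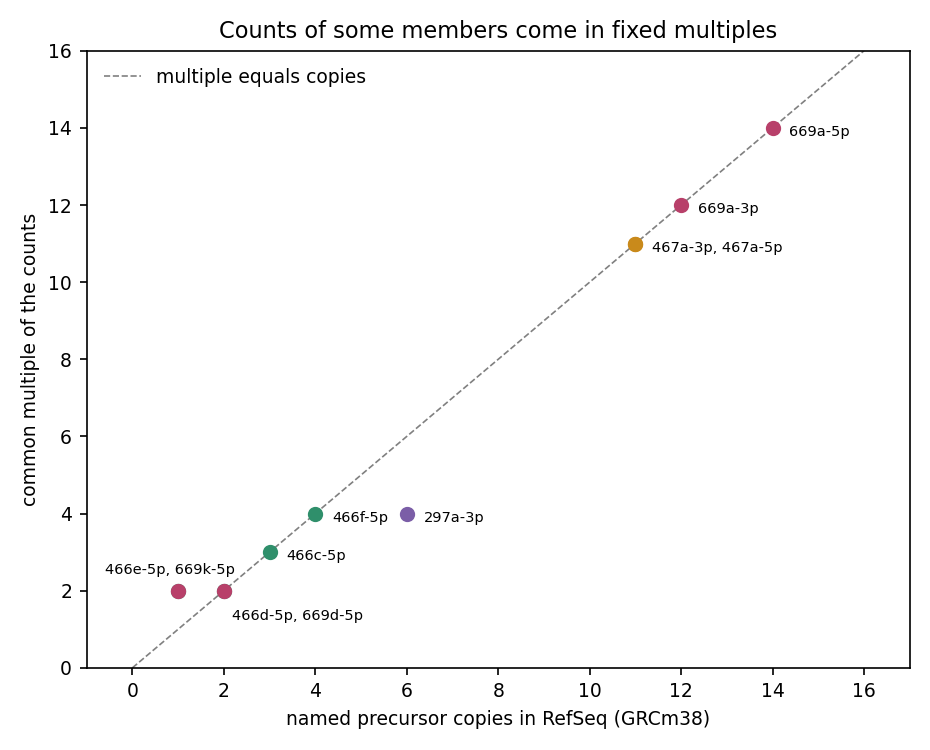
Common multiple of the deposited counts of a set (vertical axis) against the number of precursor copies named for it in RefSeq GRCm38 (horizontal axis), for the 11 sets of members with a common multiple above 1. Each point is a set or a pair of sets named by its first member without the miR prefix, the colour gives the family, and 8 of the 11 lie on the dashed line where the 2 numbers are equal.

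These multiples bear on how levels compare between members. As deposited, miR-669a-3p had the most counts, 23712, followed by miR-467a-5p with 14883 and miR-466b-3p with 8699. Divided by the common multiple, miR-669a-3p came to 1976 counts and miR-467a-5p to 1353, and miR-466b-3p, which has no multiple, stayed at 8699. With each set counted once and its counts divided in this way, the members summed to 29855 counts, and miR-466 held 65.4% of them, miR-669 17.6%, miR-467 15.1% and miR-297 1.95%. The share of miR-466 rests on miR-466a-3p and miR-466b-3p, whose counts were left undivided and made up 57.0% of that sum. miR-466a-3p came in multiples of 13 in 18 of 23 libraries, so the order of the families is not settled by these counts. Single members and sums are therefore compared between libraries, and no order of members or families is drawn from them.

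In both genotypes the families were highest in the cerebellum. Levels are given as CPM scaled by TMM, a factor per library that centres most miRNAs on no difference. In wild type libraries the summed level of all members was 1515 ± 212 CPM in the cerebellum, 700 ± 109 in the olfactory bulb, 687 ± 82.3 in the hippocampus and 587 ± 58.2 in the cortex (mean ± SD, n = 3 each). The cerebellum was thus 2.16-fold above the olfactory bulb, 2.21-fold above the hippocampus and 2.58-fold above the cortex. In knockout libraries the sums were 1583 ± 266 CPM in the cerebellum (n = 3), 723 ± 210 in the olfactory bulb (n = 3), 696 ± 172 in the hippocampus (n = 2) and 694 ± 187 in the cortex (n = 3). Each of the 6 cerebellum libraries, at 1337 to 1886 CPM, was above each of the other 17, at 481 to 898 CPM. The ranges of the other 3 regions overlapped, so their order did not exceed the spread between libraries. In bulk tissue, fewer cells of a type and less RNA per cell cannot be told apart.

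**Figure D2:**
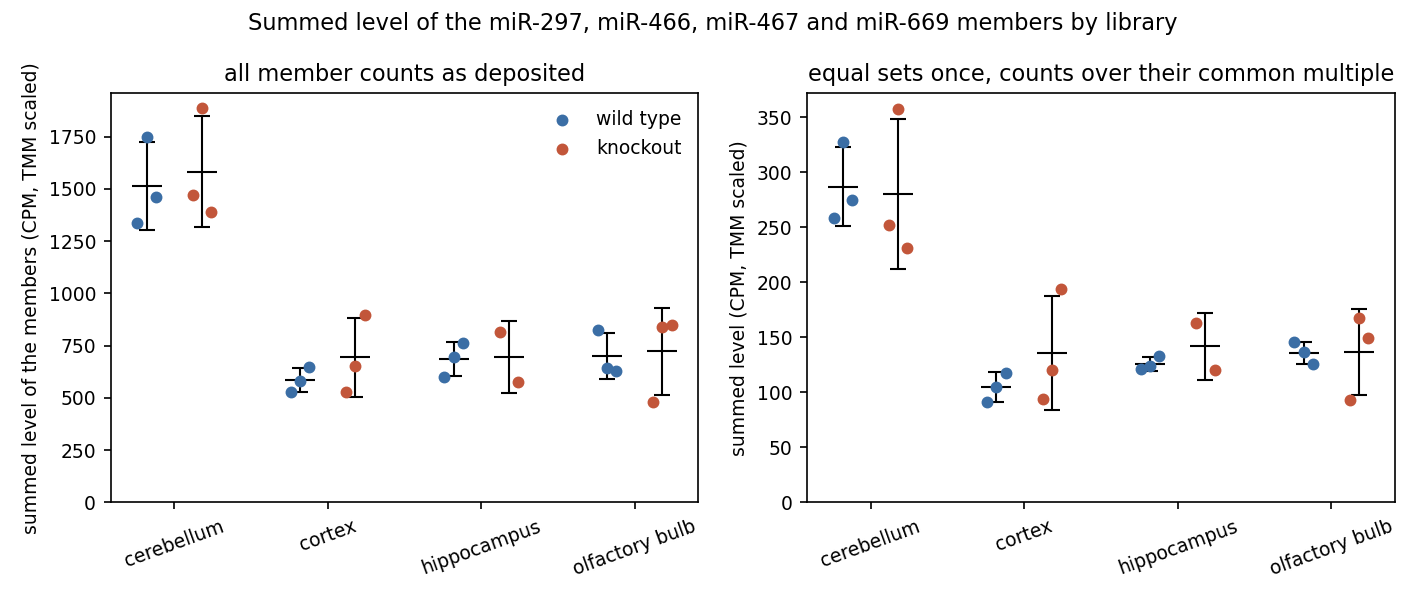
Summed level of the members in each library (vertical axes, TMM-scaled CPM) by region and genotype, with points for libraries and black marks for the mean and SD of a group. Left, all deposited member counts; right, each set of equal members once with its counts divided by their common multiple. The cerebellum libraries lie above all others in both panels, and wild type and knockout overlap in each region.

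The cerebellum was also highest with the common multiples divided out. With sets counted once and divided by their multiple, the wild type sums were 287 ± 36.1 CPM in the cerebellum, 136 ± 10.1 in the olfactory bulb, 126 ± 6.50 in the hippocampus and 105 ± 13.5 in the cortex. That sum still holds the undivided miR-466a-3p and miR-466b-3p. Without these 2 sets, which were left out after the values were seen, it was 109 ± 9.96 CPM in wild type cerebellum, 59.8 ± 11.9 in the olfactory bulb, 62.6 ± 6.64 in the hippocampus and 56.6 ± 6.17 in the cortex. The 6 cerebellum libraries of both genotypes then lay at 100.1 to 120 CPM and the other 17 at 48.6 to 80.1 CPM. The size of the difference depended on the scaling. With library totals alone and no TMM factor, the cerebellum was 2.51-fold above the olfactory bulb, 1.60-fold above the cortex and 1.35-fold above the hippocampus. On that scale the ranges overlapped. Cerebellum wild type 3 was at 1105 CPM and cerebellum knockout 3 at 1127 CPM, both below cortex knockout 3 at 1184 CPM.

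By family, the cerebellum stood out in miR-466 and miR-669 and less in miR-467. The summed level of miR-466 in wild type was 477 ± 66.2 CPM in the cerebellum against 136 ± 19.1 in the cortex, and that of miR-669 was 689 ± 171 against 196 ± 15. miR-467 had 327 ± 27.3 CPM in the cerebellum and 246 ± 40.2 in the cortex, a ratio of 1.33 with separate ranges, and its olfactory bulb value was 172 ± 42.4 CPM. miR-297, the least abundant family, had 21.5 ± 3.63 CPM in the cerebellum and 9.31 ± 1.0 in the cortex. In knockout libraries the ratio of cerebellum to cortex was 2.25 for miR-466, 3.95 for miR-669, 1.20 for miR-467 and 1.68 for miR-297. Cortex knockout 3, at 368 CPM of miR-467, was above every cerebellum library. For miR-297 the knockout cerebellum was 1.24-fold above the olfactory bulb, with overlapping ranges. Whether the families differ in this respect was not tested.

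Single members were tested with edgeR's quasi-likelihood test over the miRNAs that passed a filter on low counts, which left out 1246 of the 1915. Of the 80 members, 36 passed the filter, in 24 distinct patterns, and 44 did not. Without the cerebellum libraries 34 of the 36 would still have passed, and miR-466e-5p and miR-669o-5p would not. A region difference was called at a Benjamini-Hochberg adjusted p under 0.05 over all tested miRNAs and a change of at least 2-fold against the mean of the other 3 regions.

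In wild type mice, 17 of the 36 tested members were higher in the cerebellum and 0 were lower. Over all miRNAs tested, 16.4% were called higher and 17.8% lower in the same comparison. Counting each set of equal members once, 10 of 24 were higher. Of the 17, 16 passed the filter without the cerebellum libraries too, and miR-669o-5p passed only with them. The log2 difference was positive in 35 of 36 members, with a median of 0.98 against 0.02 over all miRNAs. Leaving out the 3 members that were at 0 in every library of some group, the median was 0.996 over 33 members. By family, 3 of 4 tested miR-297 members, 7 of 16 miR-466 members, 0 of 7 miR-467 members and 7 of 9 miR-669 members were called higher. In distinct patterns these were 1, 4, 0 and 5, since the 3 miR-297 members have equal counts. The tested miR-467 members still had a median log2 difference of 0.63.

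miR-669a-3p had the largest cerebellum difference among the tested members in wild type. Its wild type level was 197, 319 and 228 CPM in the cerebellum, 52.6, 72.8 and 59.5 in the cortex, 53.5, 91.2 and 107 in the hippocampus and 139, 74.7 and 101 in the olfactory bulb. All cerebellum libraries were above all others. The log2 difference of the cerebellum was 1.60 (SE 0.27, 3.04-fold, adjusted p = 2.58e-05 by edgeR). In knockout libraries it was at 301, 363 and 238 CPM in the cerebellum and between 41.2 and 144 elsewhere, with a log2 difference of 1.86 (SE 0.28, adjusted p = 6.34e-06 by edgeR). The 3 wild type cerebellum libraries held 1464, 2820 and 1836 deposited counts of this miRNA, and the smallest count of any library was 132, each a multiple of 12.

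miR-466b-3p and miR-466a-3p, the leading 3p arms of the miR-466 family, moved in nearly the same way. miR-466b-3p was at 77.4, 106 and 89.2 CPM in wild type cerebellum. It was at 21.3, 22.6 and 29.8 CPM in the cortex, 33.2, 31.2 and 32.1 in the hippocampus and 37.4, 40.1 and 39.6 in the olfactory bulb. The 3 wild type libraries of a region outside the cerebellum thus lay close together. The log2 difference of the wild type cerebellum was 1.54 (SE 0.24, 2.90-fold, adjusted p = 1.37e-05 by edgeR) and that of the knockout cerebellum 1.15 (SE 0.26, adjusted p = 0.000626). miR-466a-3p, with 59.8 to 119 CPM in the 6 cerebellum libraries and 19.7 to 55.1 CPM in the other 17, had a wild type difference of 1.53 (SE 0.24). The multiple of 13 seen in miR-466a-3p held for miR-466b-3p in 1 of 23 libraries.

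**Figure D3:**
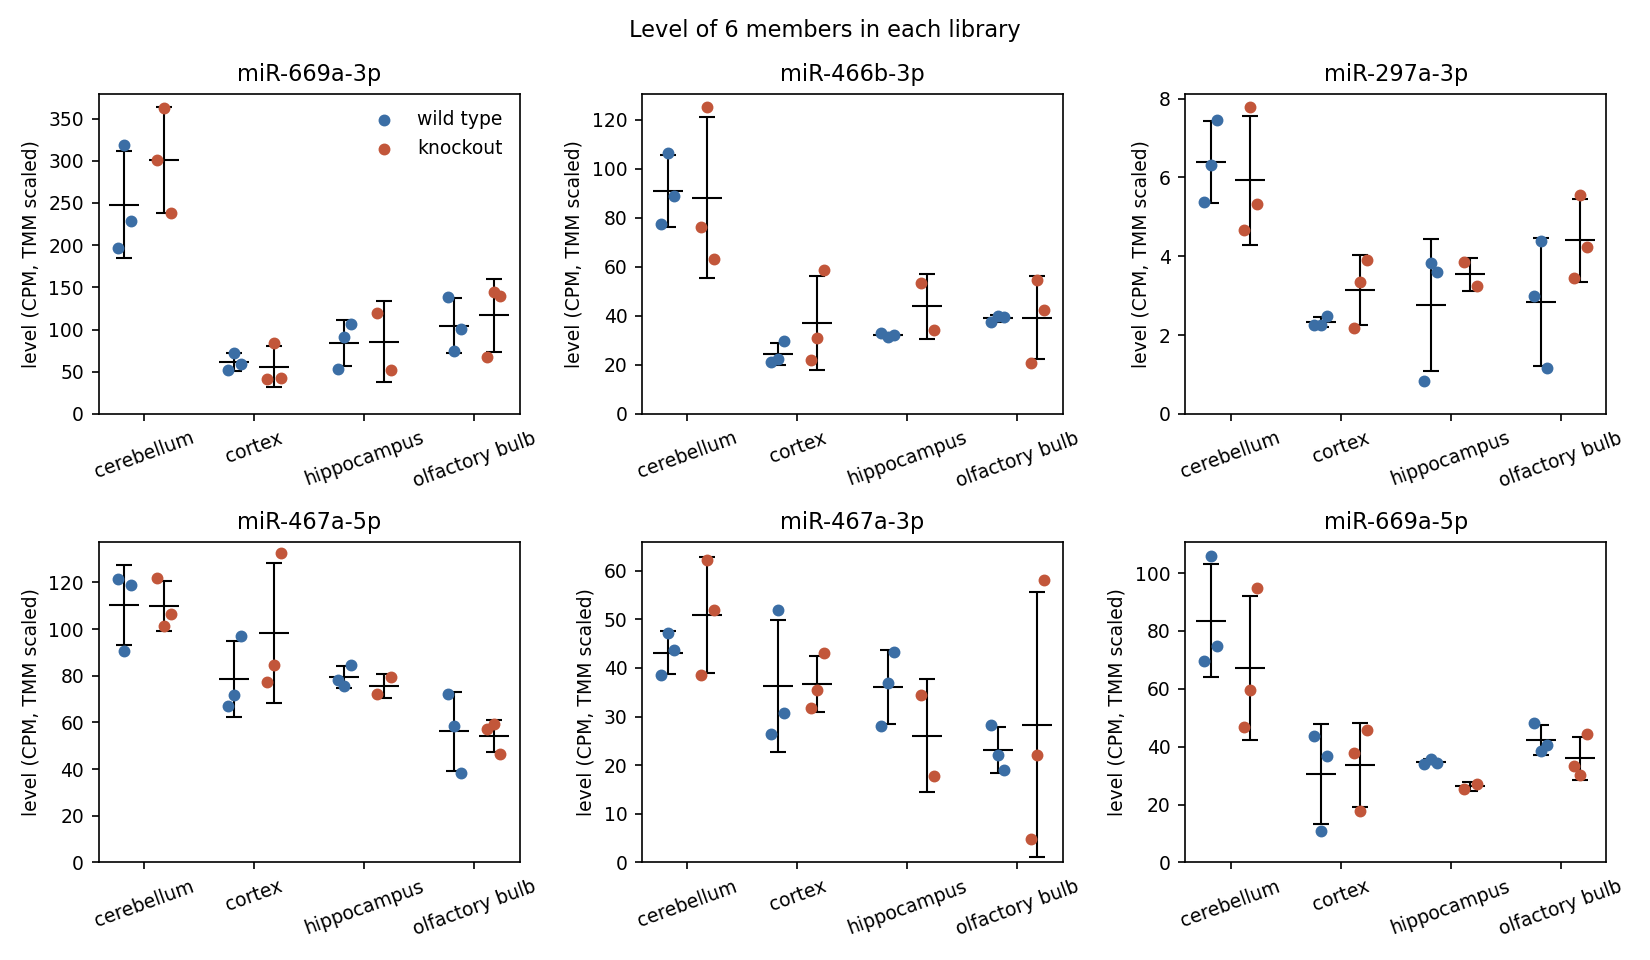
Level of 6 members (vertical axes, TMM-scaled CPM) in each of the 23 libraries by region and genotype, with points for libraries and black marks for the mean and SD of a group. miR-669a-3p and miR-466b-3p have no overlap between cerebellum and other libraries, whereas miR-467a-5p and miR-467a-3p overlap.

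miR-669a-5p carries the name of the other arm of miR-669a, though its set holds miR-669p-5p and that of miR-669a-3p holds miR-669o-3p. It was at 69.7, 106 and 74.9 CPM in wild type cerebellum and at 11 to 48.1 CPM in the other wild type libraries. Its log2 difference was 1.23 (SE 0.28, 2.35-fold). miR-669b-5p, at 8.83 ± 3.21 CPM in wild type cerebellum against 2.44 ± 0.78 in the cortex, differed by 1.48 (SE 0.26). miR-669d-5p, at 4.37 ± 0.97 against 1.45 ± 0.37, differed by 1.12 (SE 0.21). In these 2 members, all 6 cerebellum libraries of both genotypes were above the other 17. For miR-669b-5p the margin was slight, with the lowest cerebellum library at 5.085 CPM and the highest other library at 5.083. miR-297a-3p was at 5.38, 6.33 and 7.46 CPM in wild type cerebellum and at 0.849 to 4.39 CPM in the other wild type libraries, a log2 difference of 1.24 (SE 0.29). Its knockout difference of 0.68 (SE 0.31) was not called.

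The remaining called members, like miR-297a-3p, rested on few counts. Divided by its multiple of 4, miR-297a-3p had 174 counts in all libraries together. The undivided totals were 165 for miR-466h-3p and 173 for miR-669o-5p. miR-466h-3p had 8, 18 and 11 counts in the wild type cerebellum libraries and 0 to 12 in the other wild type libraries, and its log2 difference was 1.23 (SE 0.48). miR-669o-5p, with 1.55 ± 0.61 CPM in wild type cerebellum, differed by 1.15 (SE 0.42). miR-466f-3p was nearest to the 2-fold limit, at 1.01 (SE 0.42), and its call was lost in 19 of 32 alternative analyses. miR-467c-5p was just short of the limit, at 0.996 (SE 0.25, 1.99-fold).

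The abundant miR-467 members showed a smaller cerebellum difference. miR-467a-5p was at 121, 90.7 and 119 CPM in wild type cerebellum, 66.9, 71.6 and 97.2 in the cortex, 78.2, 75.7 and 84.6 in the hippocampus and 72.0, 58.4 and 38.2 in the olfactory bulb. Cerebellum and cortex overlapped. The log2 difference of 0.64 (SE 0.17, adjusted p = 0.00227 by edgeR) passed the p limit but not 2-fold. miR-467a-3p, named for the other arm and equal to miR-467d-3p, had 0.46 (SE 0.36, 95% interval -0.29 to 1.22), which passed neither. miR-669c-5p, a miR-669 member with no equal partner, also passed neither limit, at 0.18 (SE 0.18, interval -0.19 to 0.56), so the miR-669 members did not all follow miR-669a-3p.

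**Figure D4:**
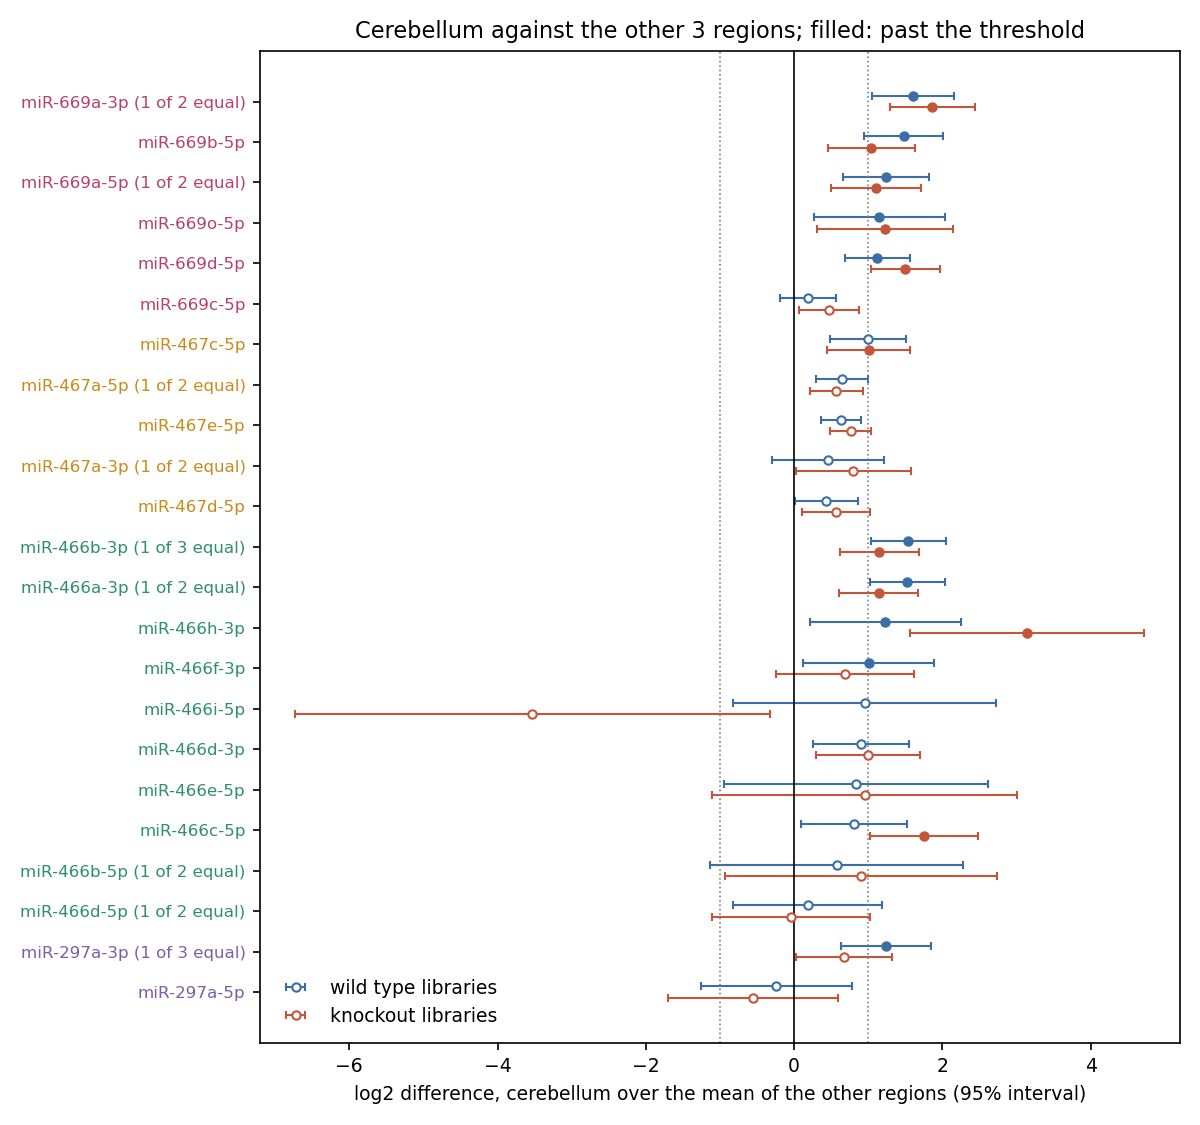
Log2 difference of the cerebellum from the mean of the other 3 regions (horizontal axis) for the tested members, each set of equal members shown once and miR-466m-5p left out, with 95% intervals. Blue points are wild type and red points knockout libraries, filled points passed the threshold, dotted lines mark 2-fold, label colours give the family, and the knockout value of miR-466h-3p is fitted against a group at 0 counts. All called differences lie to the right of 0.

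The knockout libraries gave a separate count of the same comparison. In them 15 of 36 tested members were higher in the cerebellum, against 16% of all miRNAs, and 0 were lower. Of the 15, 13 were also among the 17 called in wild type, in 8 distinct patterns. miR-466c-5p was called in knockout only, with a log2 difference of 1.76 (SE 0.35) against 0.81 (SE 0.34) in wild type, and miR-467c-5p, at 1.01 (SE 0.27), was the other. That these values differ between genotypes was not shown, since 0 members passed the test of the genotype effect between regions given below.

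Other features of the cerebellum libraries moved with these results. The summed level of 5 red blood cell miRNAs was 64019 to 94245 CPM in wild type cerebellum, 67789 to 76607 in knockout cerebellum and 7171 to 20765 in all other libraries, and 2 of the 5 were called higher in wild type cerebellum. None of the 5 was at 0 in any group. Of 8 miRNAs of choroid plexus and ciliated epithelium, 7 were called higher, with sums of 11180 to 18754 CPM in wild type cerebellum and 2096 to 3055 in wild type cortex. These sums were 3079 to 13399 CPM in wild type hippocampus, where the families summed to 687 ± 82.3 CPM. The part of these cells in the cerebellum result was not tested. With library totals alone, 8 members were called higher in the cerebellum in place of 17, and that scaling moved the median difference of all miRNAs to -0.37.

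In wild type cortex, 5 members were lower than the mean of the other regions and 0 were higher, against 6.43% lower and 10% higher over all miRNAs. They were miR-669a-3p and its equal miR-669o-3p at -1.07 (SE 0.31), miR-466c-5p at -1.04 (SE 0.40), miR-669b-5p at -1.01 (SE 0.31) and miR-669d-5p at -1.01 (SE 0.25). The regions they were set against include the cerebellum. With it left out of that mean, 0 members were called lower in the cortex, against an overall share of 3.59%, and 0 were called higher. At an unadjusted p under 0.05 there were then 2 of 36. The count of 5 also depended on single libraries. It was 1 without cerebellum wild type 2, 2 without cortex wild type 1 or hippocampus knockout 3, 3 without hippocampus wild type 3 or olfactory bulb wild type 1, and 9 without cerebellum wild type 1 or cortex wild type 3. In knockout cortex 4 members were lower, against 7.77% of all miRNAs, and the 4 were also called in wild type. The summed level of 8 olfactory bulb miRNAs was 3676 to 6803 CPM in wild type cortex and 141 to 445 CPM in knockout cortex, with all 8 called lower in the knockout. Its part in the cortex values was not tested.

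In hippocampus and olfactory bulb no member passed both limits in wild type. Most log2 differences were negative, 24 of 36 in the hippocampus and 27 of 36 in the olfactory bulb, against a mean that includes the cerebellum. With the cerebellum left out of that mean, most were positive, 27 in the hippocampus and 23 in the olfactory bulb. The medians were then 0.08 and 0.32, against 0.06 and -0.01 over all miRNAs. Against all 3 other regions, edgeR called 0 members in wild type hippocampus, with 17.3% of all miRNAs called. In wild type olfactory bulb it called 0, with 20.9% of all miRNAs called. At an unadjusted p under 0.05 there were 3 and 4 members, and DESeq2 called 0 in both. At an adjusted p under 0.05 without the 2-fold limit, miR-467e-5p was lower in the hippocampus (-0.57, SE 0.14). In the olfactory bulb 4 members in 3 distinct patterns were lower, all of miR-467, from -0.94 (SE 0.32) in miR-467c-5p to -0.58 (SE 0.23) in miR-467d-5p. With the cerebellum left out of the mean, 2 members were lower and 1 was higher in the olfactory bulb at that limit. The share of all miRNAs that passed without the 2-fold limit was not worked out, so these counts are not set against it. In the knockout, miR-466h-3p was higher in the hippocampus, where 7.77% of all miRNAs were. miR-466h-3p and miR-467c-5p were lower in the knockout olfactory bulb, against 8.67% of all miRNAs. miR-466h-3p had 28 and 8 counts in the 2 knockout hippocampus libraries and 0 counts in all 3 knockout olfactory bulb libraries.

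The second question of the design was whether loss of Cdr1as changed these miRNAs. The locus gives no miRNA count of its own, so the labels were checked by its partners. Over the mean of the 4 regions miR-7a-5p was lower in the knockout by edgeR (log2 change -1.07, SE 0.13, adjusted p = 1.72e-05), and miR-671-5p was higher (0.46, SE 0.08, adjusted p = 0.000753). By region, the log2 change of miR-7a-5p was between -1.31 and -0.90. Its adjusted p by edgeR was under 0.05 in the cortex only (0.00801). It was 0.325 in the cerebellum, 0.0509 in the hippocampus and 0.365 in the olfactory bulb. miR-671-5p was at 0.93 in the cerebellum and 0.02 (SE 0.16) in the hippocampus, so it says nothing of the labels in the hippocampus.

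Calls between genotypes, at an adjusted p under 0.05 by edgeR, depended on the filter and the block. Without the filter, 1 member passed in the cerebellum, 2 in the cortex, 4 in the hippocampus and 1 in the olfactory bulb. The shares of all miRNAs that passed without the filter are not given here. The 2 in the cortex were miR-466m-5p and its equal miR-669m-5p. The 4 in the hippocampus were the same pair and miR-466b-5p with its equal miR-466o-5p. miR-466i-5p passed in the cerebellum without the filter or with the replicate number as a block, as described below. With the filter and without a replicate block, no member passed in any region. The count was 0 of 36 in the cerebellum, where 0.149% of all miRNAs passed, 0 in the cortex (2.09%), 0 in the hippocampus (0%), 0 in the olfactory bulb (0.149%) and 0 over the mean of the 4 regions (1.49%). The test of whether the genotype effect differed between regions gave 0 members as well, with 1.64% over all miRNAs. At an unadjusted p under 0.05 the counts were 1, 0, 3 and 2 in the 4 regions, 0 over their mean and 3 for the difference between regions. DESeq2 called 0 in each of the 6. The log2 change was positive in 17 and negative in 19 of the 36 over the mean of the 4 regions, with a median of -0.0032 against -0.0029 over all miRNAs. In the cortex it was positive in 26 of 36, with a median of 0.28 against -0.02 over all miRNAs, and the smallest adjusted p was 0.997.

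For the sum of all members, the genotype groups overlapped in each region. The knockout over wild type log2 ratio of the group means was 0.06 in the cerebellum, 0.24 in the cortex, 0.02 in the hippocampus and 0.05 in the olfactory bulb. The families differed within these sums. In the hippocampus the knockout mean was above wild type for miR-466 (230.6 ± 65.8 against 179 ± 5.83 CPM, log2 ratio 0.37). It was below wild type for miR-467 (215 ± 11.4 against 244 ± 22.9 CPM, -0.18). The genotypes did not overlap in either, but they nearly touched. For miR-466 the lowest knockout library was at 184.1 CPM and the highest wild type library at 183.6. For miR-467 the highest knockout library was at 223.0 CPM and the lowest wild type library at 223.6. The share of all miRNAs that separated in this way was not worked out. In the cortex miR-466 had a ratio of 0.60 with overlap. Sums over members were given no test. In the hippocampus the 2 knockout libraries were far apart, at 818 and 575 CPM, and the ratio turned to -0.26 when knockout 2 was left out.

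For the abundant members the intervals set a limit on a common change. The mean change over the 4 regions was 0.08 for miR-669a-3p (95% interval -0.30 to 0.46), 0.05 for miR-467a-5p (-0.18 to 0.28), 0.25 for miR-466b-3p (-0.10 to 0.60) and -0.21 for miR-669a-5p (-0.61 to 0.18). Changes of 2-fold in either direction were outside these 4 intervals. miR-297a-3p had the largest rise, at 0.30 (-0.13 to 0.72). A p that misses the limit does not show that the genotypes were alike, and intervals were wider for scarce members, such as -0.77 to 0.54 for miR-297a-5p.

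**Figure D5:**
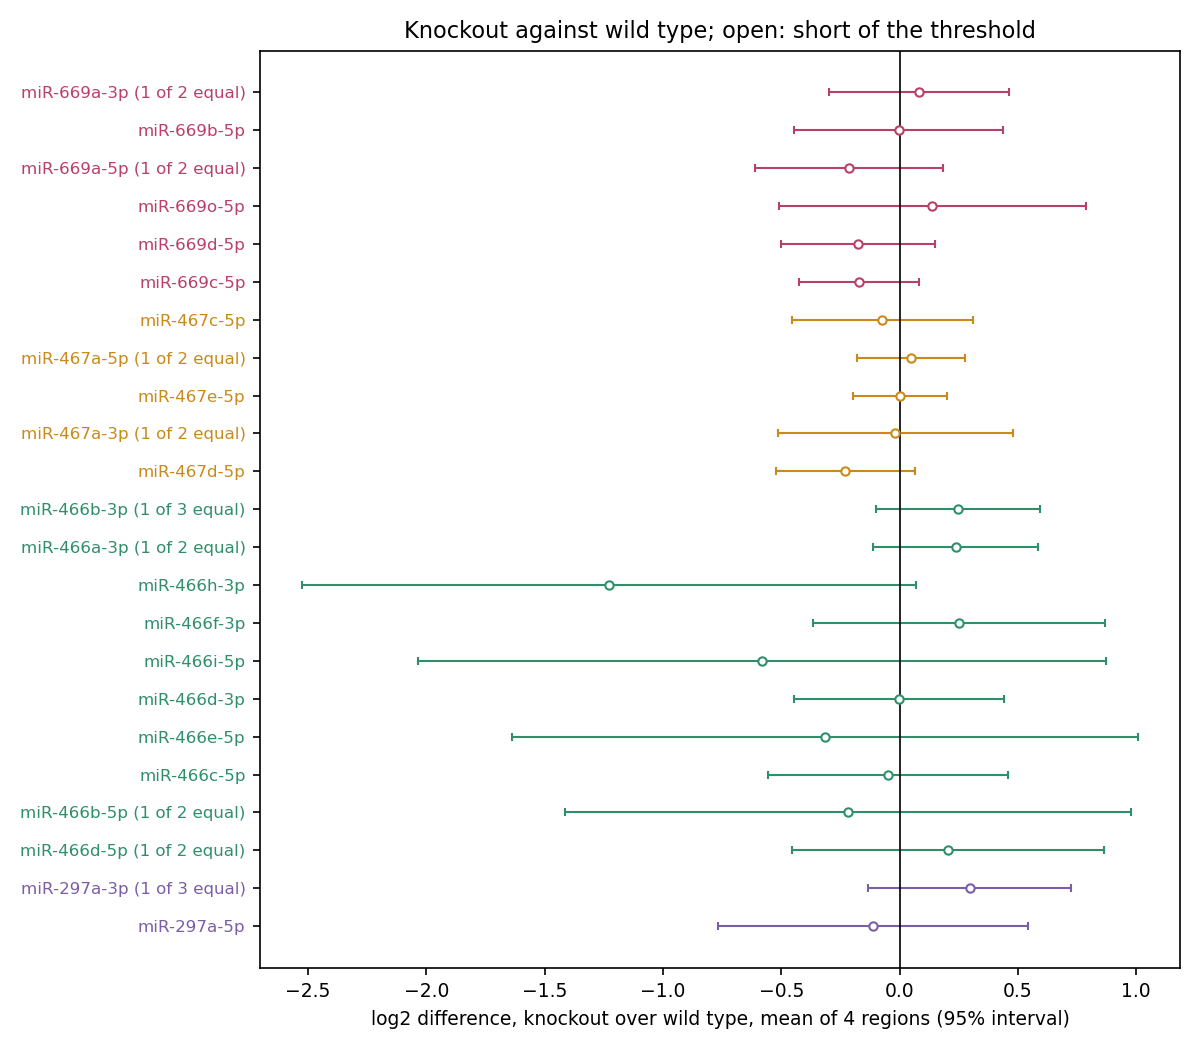
Log2 change, knockout over wild type, as the mean of the 4 regions (horizontal axis) for the tested members, each set of equal members shown once and miR-466m-5p left out, with 95% intervals and colours by family. None of the changes passed the threshold, and the interval of each includes 0.

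The most extreme genotype values belonged to members with few or uneven counts. miR-466i-5p, whose precursor lies outside Sfmbt2, had 45, 1 and 29 counts in wild type cerebellum and 2, 0 and 2 in knockout cerebellum. In wild type cortex it had 0, 3 and 27 counts and in knockout cortex 7, 1 and 28, so libraries of 1 group differed as much as the genotypes. Its log2 change in the cerebellum was -3.95 (SE 1.61, adjusted p = 1 by edgeR). In the cerebellum the replicate numbers paired the libraries by the criterion given with the methods, and with the replicate number as a block it was -4.05 (SE 0.71, adjusted p = 0.0344), the 1 member then called there. It was also called in the test of the difference between regions under that block, with an adjusted p of 0.0281. Without the filter and without a block, its change in the cerebellum was -3.96 (SE 0.60, adjusted p = 2.54e-08 by edgeR).

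miR-466m-5p and its equal miR-669m-5p were counted only as 0, 10 or 20. In the cortex they had 10 counts in 1 knockout library and 0 in the other 5, and in wild type hippocampus 10, 20 and 10 against 0 and 0 in the knockout. miR-466h-3p had 12, 4 and 0 counts in wild type olfactory bulb and 0 in the knockout, and in the hippocampus 4, 8 and 12 in wild type and 28 and 8 in the knockout. In the olfactory bulb the largest rise was that of miR-466i-5p, with 21, 6 and 0 counts in wild type and 27, 15 and 0 in the knockout. In the cortex the largest fall was that of miR-466d-5p, with 10, 12 and 12 counts in wild type and 0, 12 and 6 in the knockout (log2 change -0.41, SE 0.63). miR-466c-5p had the largest rise in the cerebellum, from 4.44, 4.07 and 2.98 CPM in wild type to 6.56, 5.84 and 5.81 in the knockout. The genotypes did not overlap there, yet the change of 0.66 (SE 0.40, adjusted p = 1) was not called. Such separation was not rare. Of 36 tested members, 5 lay above and 8 below wild type in the hippocampus, with 2 knockout libraries. In the olfactory bulb 1 lay above, and in the cortex 0 separated. The share of all miRNAs that separated in this way was not worked out.

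A further pair of lists was read beside the families. The miR-290 to miR-295 cluster, another set of early embryo miRNAs of rodents, has 18 entries in the files, of which 5 had any count, for 8 counts in all, and none could be tested. miR-574-5p, miR-574-3p and miR-1187, which carry GU or AC repeats but lie elsewhere, had 368, 1992 and 4 counts. Of these 3, 2 could be tested and 0 were called in the cerebellum. miR-574-5p differed there by -0.65 (SE 0.33) and miR-574-3p by -0.34 (SE 0.13), opposite in sign to miR-669a-3p and miR-466b-3p.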

How the data were processed

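Per the labels' protocols, RNA was extracted with TRIZOL and sequenced after TruSeq small RNA library preparation. The authors deposited 1 file of raw counts per miRNA for each library. The submitters' processing notes name mm9 as the build. How reads were aligned and counted, the miRNA annotation, and what was done with reads fitting more than 1 miRNA: not given in the sources used here.

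Members, lists and tests were chosen with earlier results of these data known. The text names every member called in wild type, the 12 with the highest mean CPM, the extreme genotype changes and miR-466i-5p. miR-467c-5p, miR-467d-5p, miR-467e-5p, miR-466b-5p, miR-466o-5p, miR-466e-5p, miR-669c-5p, miR-297a-5p and members shown by sequence or at 0 were named after their values were seen. Tests used R 4.3.3 and edgeR 4.0.16: TMM factors of 0.620 to 1.41, filterByExpr with a minimum count of 10 and total of 15, and glmQLFit on all 23 libraries with a mean per group. At least 99.988% of each library's counts were kept. Fits were tested on simulated data. The alternatives were RLE and upper quartile factors, library totals alone, no filter, DESeq2 1.42.0, replicate blocks, equal members kept once, and each library left out. Division by the common multiple, with or without miR-466a-3p and miR-466b-3p, knockout in place of wild type libraries, and a reference mean without the cerebellum were added after seeing the data.

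Replicate numbers were taken to pair libraries where every same-numbered pair of 3 correlated above 0.1 in its deviations from the group means. This held for the genotypes in the cerebellum (0.103 to 0.374) and not in the cortex or olfactory bulb, nor between regions. In the hippocampus, with 2 same-numbered pairs, the criterion could not be met. Differently numbered pairs in the cerebellum ran from -0.378 to 0.195, so they overlapped the same-numbered pairs. No 2 libraries of a group agreed within sampling noise, with a chi-square per degree of freedom of 17.7 to 146 over 22 pairs.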

Additional observations from a re-analysis of the deposited data

How the results depend on the processing

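Depth and shared counts limit these results: 44 of 80 members could not be tested, and equal or multiplied counts may overstate how many reads lie behind a value. The 17 members higher in wild type cerebellum became 8 with library totals alone, and 11 with equal members kept once, with or without division by the common multiple. All 10 distinct patterns stayed among the 11 in both. Leaving out 1 library gave 14 to 18. The 5 members lower in wild type cortex became 11 with upper quartile factors, 0 with library totals alone and 0 with the cerebellum left out of the mean of the other regions, and 1 to 9 when 1 library was left out. In wild type hippocampus the count of 0 became 2 with library totals alone, 2 without a filter, 3 with the replicate block within each region and 1 in knockout libraries, and 0 to 2 with 1 library left out. In wild type olfactory bulb the count of 0 became 1 with upper quartile factors, 7 lower with library totals alone, 1 without a filter and 2 in knockout libraries, and 0 to 1 with 1 library left out. These scalings moved all miRNAs too. With library totals alone their median difference was -0.71 in the olfactory bulb, 0.55 in the hippocampus and 0.52 in the cortex. With upper quartile factors it was -0.23 in the cortex and -0.16 in the olfactory bulb. The shares of all miRNAs called under these alternatives are not given here. The cause was not tested.

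Between genotypes, without a filter the counts of 0 became 1 in the cerebellum, 2 in the cortex, 4 in the hippocampus, 1 in the olfactory bulb and 6 for the difference between regions. These counts take equal members singly, and the shares of all miRNAs beside them are not given here. With the replicate block within each region the counts of 0 became 1 in the cerebellum and 1 for the difference between regions, each miR-466i-5p. The count for the mean of the 4 regions was 0 under each alternative, and leaving out 1 library gave 0 in all 6 comparisons. The replicate block within each genotype gave 15 members in wild type cerebellum, 4 in wild type cortex and 0 between genotypes. With 1 library left out, the log2 ratio of the summed level ranged from -0.08 to 0.18 in the cerebellum, 0.01 to 0.40 in the cortex, -0.26 to 0.25 in the hippocampus and -0.08 to 0.27 in the olfactory bulb. The small mean genotype changes changed sign in some alternatives. miR-669a-3p went to -0.025 and -0.011 with the replicate block within each region and each genotype, and ranged from -0.10 to 0.21 with 1 library left out. miR-467a-5p ranged from -0.017 to 0.10 with 1 library left out. A median of 53 members detected per library became 29 at 10 counts or more, and 44.8 at the smallest library total.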
